A study of Mus musculus with 9 samples.

Results

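Aminoacyl-tRNA synthetases join each amino acid to its transfer RNA (tRNA), the step that supplies protein synthesis. The set described here holds 37 genes of the 55401 in the deposited table: 20 synthetases of the cytosol, 16 synthetases of mitochondria (names ending in 2) and Sepsecs. It was chosen by gene name, with the fold changes of all 3 comparisons already known from earlier work on these data. Counts of changed members are therefore not independent evidence of a direction, and Sepsecs, which is no synthetase of the standard kind and was placed beside them with its values known, is given as a description with no test.

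RNA from brain tissue of mice labelled WT was sequenced at day 28 in 3 groups of 3 libraries. Sham-operated mice received ultrapure water. Mice with photothrombosis (PT), in which illumination of a circulating dye clots cortical vessels and leaves a focal infarct, received either the same water (PT vehicle) or Pushen, a commercial drug preparation, both by gavage from 24 h after surgery; the Pushen libraries carry doses of 391, 392 and 393 mg/kg and were treated as 1 group. Whether the 3 libraries of a group are 3 mice is not stated in the labels, so each p-value reflects the spread among these libraries, part of which may be technical.

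Cells need a matching enzyme for each amino acid in the cytosol, where nuclear messages are translated, and again in mitochondria, where a small set of respiratory chain proteins is made. Most amino acids have a separate nuclear gene for each compartment, while Gars (glycine) and Kars (lysine) are known to serve both from a single gene. Several cytosolic enzymes, among them those for glutamate and proline, isoleucine, leucine, methionine, glutamine, lysine, arginine and aspartate, sit in a large complex held by the scaffold proteins Aimp1, Aimp2 and Eef1e1. Transcription of many synthetase genes is known to be raised by Atf4, the transcription factor of the integrated stress response, and that of Wars (tryptophan) by interferon-gamma. Sepsecs makes selenocysteine on its own tRNA, after the kinase Pstk has acted, and so feeds selenoproteins such as glutathione peroxidases.

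The libraries held between 57437342 and 75100133 counts, with between 26579 and 27979 genes detected. The labels give brain as the tissue although their extraction protocol names retinas. All 10 neuron and all 8 astrocyte markers searched had counts in every library, which cannot tell the tissues apart, since both hold neurons and glia. PT vehicle library 1 and Pushen library 2 stood apart by choroid plexus transcripts: Ttr, the main transcript of that epithelium, reached 528.3 and 607.5 FPKM there, against 2.09 to 16.6 FPKM in sham and 17.9 to 146.3 FPKM in the other infarct libraries. PT vehicle library 1 also had the most Drd2, a striatal dopamine receptor, at 20.6 FPKM against at most 2.96 FPKM elsewhere. Some results on the members are also given without these libraries. The fold changes of the marker and pathway lists are given only with them. Because the tissue was sequenced in bulk, fewer cells of a type and less RNA per cell cannot be told apart.

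All 37 members passed the filter on low values, a mean of at least 0.5 FPKM (fragments per kilobase of exon, scaled to library size) over the 9 libraries. In sham tissue the cytosolic transcripts together came to 307.1 ± 9.55 FPKM (SD, n = 3) and the mitochondrial ones to 48.4 ± 1.36 FPKM. In FPKM the cytosolic transcript was the higher in each of the 17 pairings of enzymes for the same amino acid. The ratio ran from 1.34 for Tars over Tars2 (threonine) to 28.3 for Nars over Nars2 (asparagine). For Tars and Tars2 the order depended on the gene length used, as given below.

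**Figure D1:**
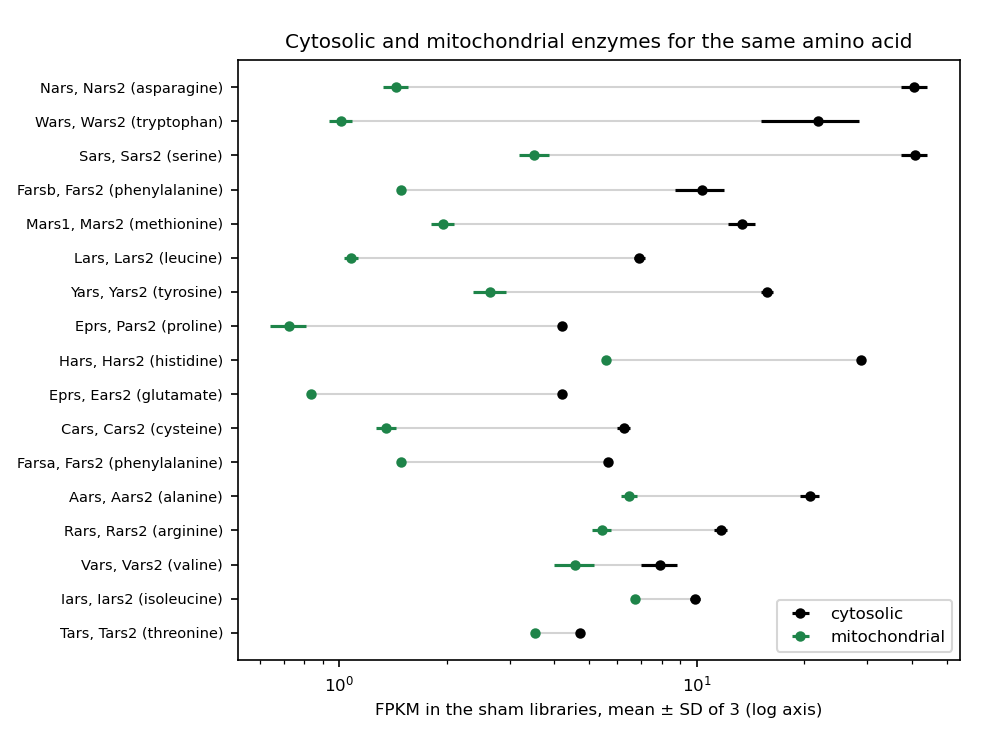
FPKM in the 3 sham libraries (mean ± SD, log axis) of cytosolic (black) and mitochondrial (green) enzymes for the same amino acid, ordered by their ratio. Each cytosolic transcript lies to the right of its mitochondrial partner, with ratios from 1.34 to 28.3. With the length of the principal transcript in place of that behind FPKM, Tars lay below Tars2.

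At the top of the cytosolic order in sham stood Sars (serine) at 40.7 ± 3.45 FPKM and Nars at 40.6 ± 3.48 FPKM, which did not differ beyond their spread. Gars followed at 32.4 ± 0.829 FPKM and Hars (histidine) at 28.8 ± 0.656 FPKM. Sars had 36.8, 43.4 and 41.9 FPKM in sham, 33.4, 38.1 and 36.9 FPKM in PT vehicle and 36.0, 33.4 and 38.5 FPKM in Pushen, so its groups overlapped narrowly in FPKM. At the bottom was Eprs, which charges both glutamate and proline, at 4.22, 4.31 and 4.11 FPKM in sham, 3.91, 4.53 and 4.27 FPKM in PT vehicle and 4.57, 4.58 and 4.36 FPKM in Pushen. The Eprs libraries of sham and PT vehicle overlapped.

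Among mitochondrial enzymes Iars2 (isoleucine) was the highest over all libraries, though in PT vehicle the mean of Aars2 (alanine), 6.37 FPKM, lay above its 6.04 FPKM. Iars2 had 6.80, 6.61 and 6.81 FPKM in sham, 5.67, 5.83 and 6.62 FPKM in PT vehicle and 6.50, 6.55 and 7.03 FPKM in Pushen. Ears2 (glutamate) was the lowest over all libraries, with 0.81, 0.85 and 0.85 FPKM in sham, 1.03, 1.00 and 0.75 FPKM in PT vehicle and 0.95, 0.88 and 0.84 FPKM in Pushen. No source states the gene length behind the FPKM values. The length implied by counts and FPKM was a median of 1.14 times the union of every annotated exon in GENCODE M21. The values thus appear to be scaled to that union, which understates genes with many partial transcript models. For Eprs that union is 3.69 times the length of the principal transcript. Per principal transcript Eprs came to 17.7 in sham, rank 12 rather than 25 of the 37 members, while Nars and Sars remained the highest at 73.5 and 66.8. On that scale Tars came to 7.95 and Tars2 to 11.6, so the order of this pair reversed, while the other pairs kept theirs. Iars and Iars2 lay close to each other, at 13.5 and 12.5.

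The comparison of PT vehicle with sham asks how the infarct altered these transcripts. Of the 20 cytosolic enzymes 6 were lower and 0 were higher at an adjusted p under 0.05 (edgeR quasi-likelihood test, Benjamini-Hochberg adjustment over 16740 genes); of the 16 mitochondrial enzymes 1 was lower and 0 were higher. Over all genes tested 30.9% were called, 19.1% higher and 11.8% lower. The cytosolic share called lower (30.0%) stood above the 11.8% of all genes. The mitochondrial share (6.25%), which is 1 enzyme, stood below it. With DESeq2 8 cytosolic and 4 mitochondrial enzymes were lower, beside 2654 of 16740 genes, so both shares then stood above that of all genes. Whether the classes differ was not tested. With edgeR the median log2 fold change was -0.25 over the cytosolic enzymes, 16 of which lay below 0. It was -0.08 over the mitochondrial ones, 9 of which lay below 0, beside -0.0029 over all genes.

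**Figure D2:**
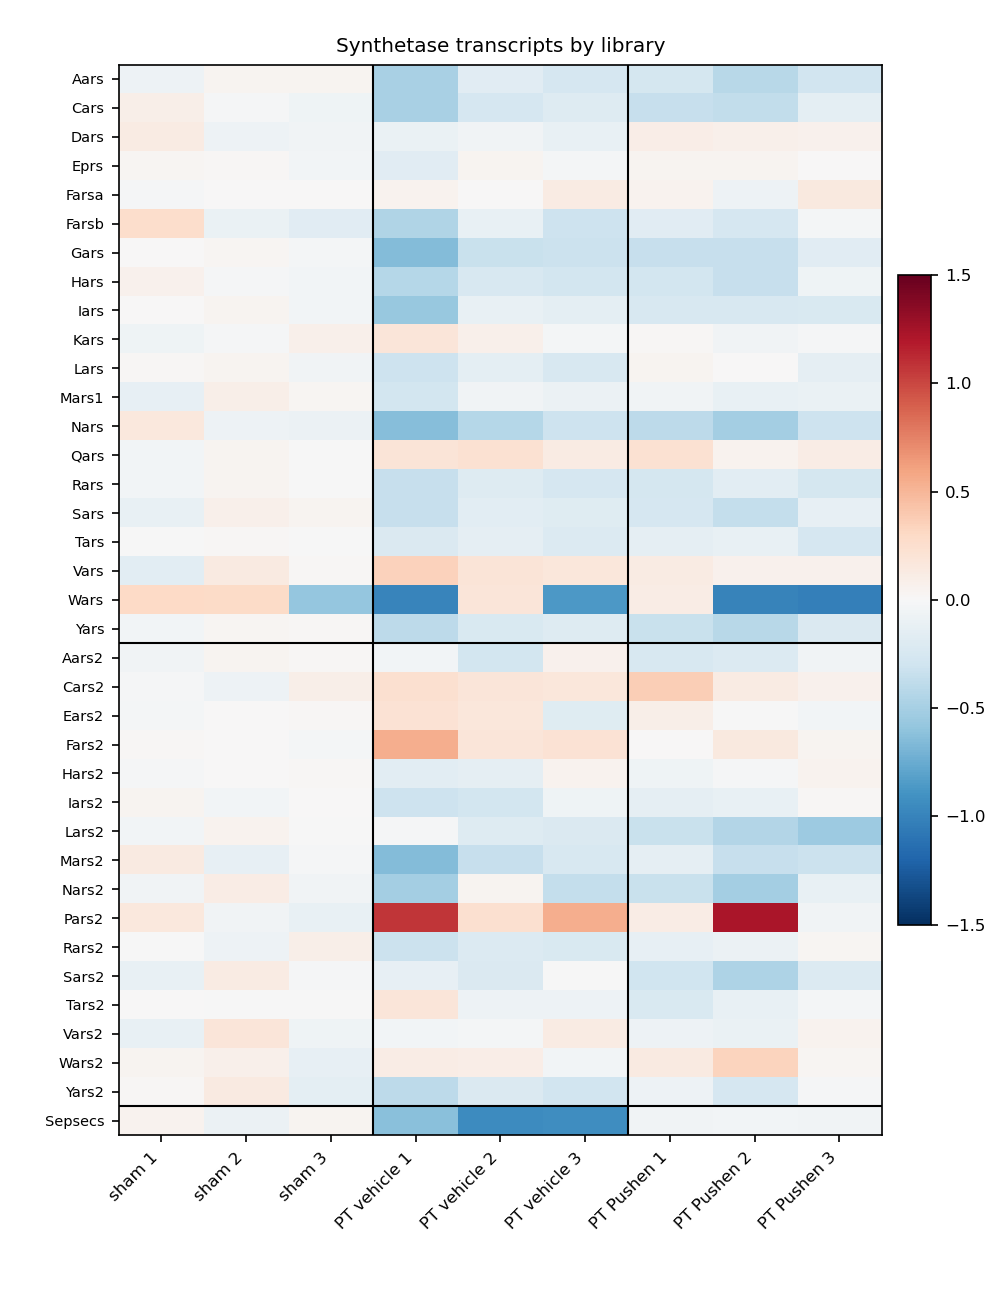
Heat map of log2 CPM (counts scaled to library size by edgeR) minus the mean of the 3 sham libraries, with 1 row per member and 1 column per library; black lines part cytosolic enzymes (top), mitochondrial enzymes (middle) and Sepsecs (bottom), and the 3 groups. Blue, lower than sham, prevails among the cytosolic rows in the 6 infarct libraries, Sepsecs is deep blue in PT vehicle alone, and Wars and Pars2 vary within groups.

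Gars, the enzyme for glycine (ENSMUSG00000029777, chr6:55038007-55079500, plus strand, GRCm38), had 31.9, 33.3 and 31.9 FPKM in sham against 21.5, 26.9 and 26.7 FPKM in PT vehicle. Every PT vehicle library lay below every sham library, and library 1 was the lowest. Gars fell by 0.43 ± 0.10 on the log2 scale (SE; adjusted p = 0.0132), which is 25.6% lower. Pushen libraries had 26.8, 26.8 and 29.8 FPKM, also below sham.

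Nars, the enzyme for asparagine (ENSMUSG00000024587, chr18:64499647-64516652, minus strand), had 44.6, 38.8 and 38.4 FPKM in sham and 27.2, 31.5 and 33.6 FPKM in PT vehicle. The groups did not overlap, and sham library 1 was the highest of the 9. Nars fell by 0.46 ± 0.11 on the log2 scale (adjusted p = 0.0136), 27.2% lower. The Pushen libraries, at 32.5, 29.9 and 33.7 FPKM, lay in the range of PT vehicle or close to it. Asns, which makes the asparagine that Nars uses and was picked here after its values were seen, had 27.8, 23.2 and 24.7 FPKM in sham and 12.9, 16.9 and 19.2 FPKM in PT vehicle, and fell by 0.69 ± 0.15 on the log2 scale (adjusted p = 0.00945).

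Hars had 29.5, 28.6 and 28.2 FPKM in sham and 22.2, 25.5 and 24.4 FPKM in PT vehicle, with no overlap (log2 fold change -0.32 ± 0.09, adjusted p = 0.0302). Aars, the enzyme for alanine, had 19.3, 21.5 and 21.4 FPKM in sham and 15.4, 19.3 and 18.0 FPKM in PT vehicle (-0.29 ± 0.09, adjusted p = 0.0439). Its PT vehicle library 2 reached the lowest sham library in FPKM, while on the edgeR scale the groups stayed apart. Mars2, the mitochondrial enzyme for methionine, had 2.10, 1.81 and 1.94 FPKM in sham and 1.27, 1.59 and 1.69 FPKM in PT vehicle (-0.42 ± 0.13, adjusted p = 0.0386), again apart. Yars (tyrosine) and Rars (arginine) each fell by 0.27 on the log2 scale, with SEs of 0.08 and 0.07 and adjusted p-values of 0.0344 and 0.0263.

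Most of these calls were near the threshold. That of Gars held whichever library was left out, and that of Nars was lost only without sham library 1 (adjusted p = 0.0512). Hars and Rars lost theirs when any 1 of the 3 sham libraries or PT vehicle library 1 was left out, with adjusted p up to 0.0948 and 0.0925. Yars lost its call in those omissions and also without PT vehicle library 2 or Pushen library 1 (up to 0.0979), and Mars2 in the same 4 omissions and also without PT vehicle library 2 or Pushen library 2 (up to 0.127). Aars kept its call only when PT vehicle library 2 was the one omitted (up to 0.122 otherwise). Without PT vehicle library 1 and Pushen library 2 together, 2 synthetases passed, Gars (-0.33 ± 0.08, adjusted p = 0.0293) and Nars (-0.38 ± 0.10, adjusted p = 0.0412). Over all genes 3465 then passed, beside 5176 with every library kept. DESeq2 called 13 synthetases, 12 lower (8 cytosolic and 4 mitochondrial) and Fars2 higher, beside 6257 of 16740 genes, 2654 of them lower. Scaling by library size alone called 3, Gars and Nars lower and Fars2 higher, beside 4982 genes, 1430 of them lower.

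Of the members that did not pass, Cars (cysteine) had a log2 fold change of -0.31 ± 0.11 (adjusted p = 0.0528), Lars (leucine) -0.23 ± 0.08 (0.0567), Sars -0.23 ± 0.09 and Tars -0.19 ± 0.07. The values above 0 in the cytosolic class were Vars (valine) at 0.24 ± 0.09, Qars (glutamine) at 0.18 ± 0.08, Kars at 0.08 ± 0.08 and Farsa, the catalytic subunit of the phenylalanine enzyme, at 0.06 ± 0.08. Its partner subunit Farsb stood at -0.30 ± 0.14. The other cytosolic values were -0.26 ± 0.11 for Iars, -0.14 ± 0.09 for Mars1, -0.09 ± 0.08 for Dars (aspartate) and -0.05 ± 0.07 for Eprs. Mars1 overlaps Ddit3 on the opposite strand, a stress gene that had 10.9 to 11.4 FPKM in sham and 12.9 to 14.7 FPKM in PT vehicle. The mitochondrial enzymes that did not pass ran from -0.32 ± 0.13 for Yars2 (tyrosine), -0.27 ± 0.17 for Nars2 and -0.26 ± 0.09 for Rars2 (arginine) through -0.21 ± 0.08 for Iars2 up to 0.21 ± 0.11 for Cars2 (cysteine), with Fars2 and Pars2 above that. The remaining 8, Aars2, Ears2, Hars2, Lars2, Sars2, Tars2, Vars2 and Wars2, lay between -0.15 and 0.09. Hars2 and Hars are divergent genes whose models overlap at their starts.

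Of the 36 synthetases 15 had every PT vehicle library below every sham library, beside 23.4% of all genes, on the edgeR scale (CPM), and 5 had every PT vehicle library above, beside 26.2% of all genes; those 5 were Vars, Qars, Cars2, Fars2 and Pars2. In the deposited FPKM, 12 lay below, beside 18.6% of all genes, and 6 above, beside 29.3%, Farsa being the additional one above. The 3 that lay below on the edgeR scale alone were Sars, Aars and Iars2. In 14 of the 17 pairings the cytosolic enzyme had the lower fold change of the pair, and in 0 were the partners called in opposite directions. The pairings are not independent, since Eprs and Fars2 each enter more than 1 of them. Some partners differed by less than their SE, as Rars at -0.27 ± 0.07 and Rars2 at -0.26 ± 0.09.

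**Figure D3:**
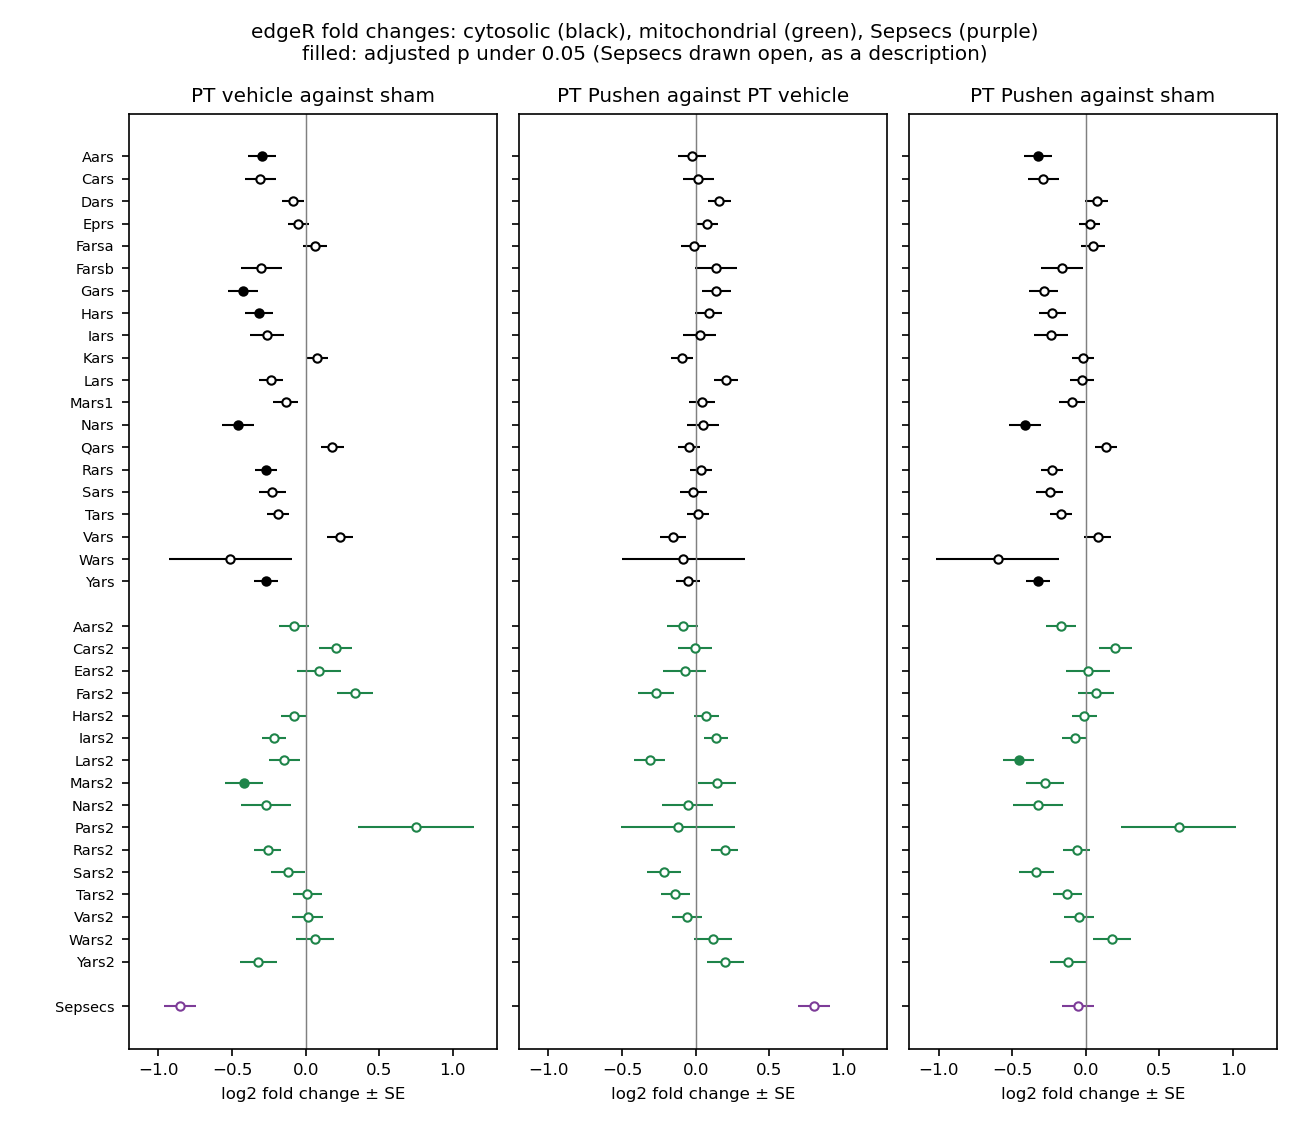
Log2 fold change ± SE of each member in the 3 comparisons from edgeR, for cytosolic (black) and mitochondrial (green) enzymes and Sepsecs (purple, drawn open as a description); filled points have an adjusted p under 0.05. Filled points lie to the left of 0 in the comparisons with sham (7 and 4 enzymes), and there are 0 in Pushen against PT vehicle.

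The summed cytosolic FPKM was 266.2 ± 23.1 in PT vehicle and 272.8 ± 13.2 in Pushen, against 307.1 ± 9.55 in sham. The mitochondrial sum was 47.4 ± 1.43 and 47.7 ± 1.06 against 48.4 ± 1.36. The ratio of the cytosolic to the mitochondrial sum was 6.53, 6.36 and 6.14 in the sham libraries, 5.11, 6.28 and 5.49 in PT vehicle and 6.05, 5.44 and 5.67 in Pushen, so PT vehicle library 2 lay among the sham libraries. PT vehicle library 1 was the lowest, and without it the cytosolic median fold change was -0.18.

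Cell type markers moved in the same comparison. Of 10 neuron markers 8 were lower and 0 higher in PT vehicle than in sham (median log2 fold change -0.52), and their summed level was 1268 to 1429 FPKM in sham, 852.5 to 1089 FPKM in PT vehicle and 942.8 to 1166 FPKM in Pushen, with 0 of them at a count of 0. Those of smallest p included Gad1, which makes the transmitter GABA (-0.53 ± 0.10, adjusted p = 0.00457), and Snap25 of the synaptic vesicle machinery (-0.75 ± 0.15, adjusted p = 0.00721). Higher were 7 of 8 astrocyte, 8 of 10 microglia and macrophage, 7 of 8 oligodendrocyte, 5 of 6 endothelial and 6 of 6 fibroblast markers. Of 6 B and plasma cell markers listed only 3 passed the filter on low values, and all 3 were higher. The 6 together came to 0.95 to 4.27 FPKM in sham and 61.4 to 369.1 FPKM in the infarct libraries. The filter thus favoured markers high after the infarct, and this count is no separate evidence of a rise. Markers of striatal neurons differed from the neuron list: 3 of 6 were higher and 0 lower, with a median of 2.14. The striatal markers were uneven within PT vehicle, averaging 3.69, 1.42 and 0.10 log2 units above sham in libraries 1, 2 and 3. Their summed level there was 405.3, 98.4 and 55.7 FPKM, against 45.3 to 56.6 FPKM in sham, so library 3 lay within the sham range. By library the neuron markers averaged -0.76, -0.51 and -0.38 log2 units from sham in PT vehicle and -0.50, -0.55 and -0.24 in Pushen. The median cytosolic enzyme stood at -0.34, -0.12 and -0.19 in PT vehicle and -0.15, -0.20 and -0.13 in Pushen. PT vehicle library 1 was the lowest in both series. The part of cell makeup in the fall of the synthetases was not tested.

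**Figure D4:**
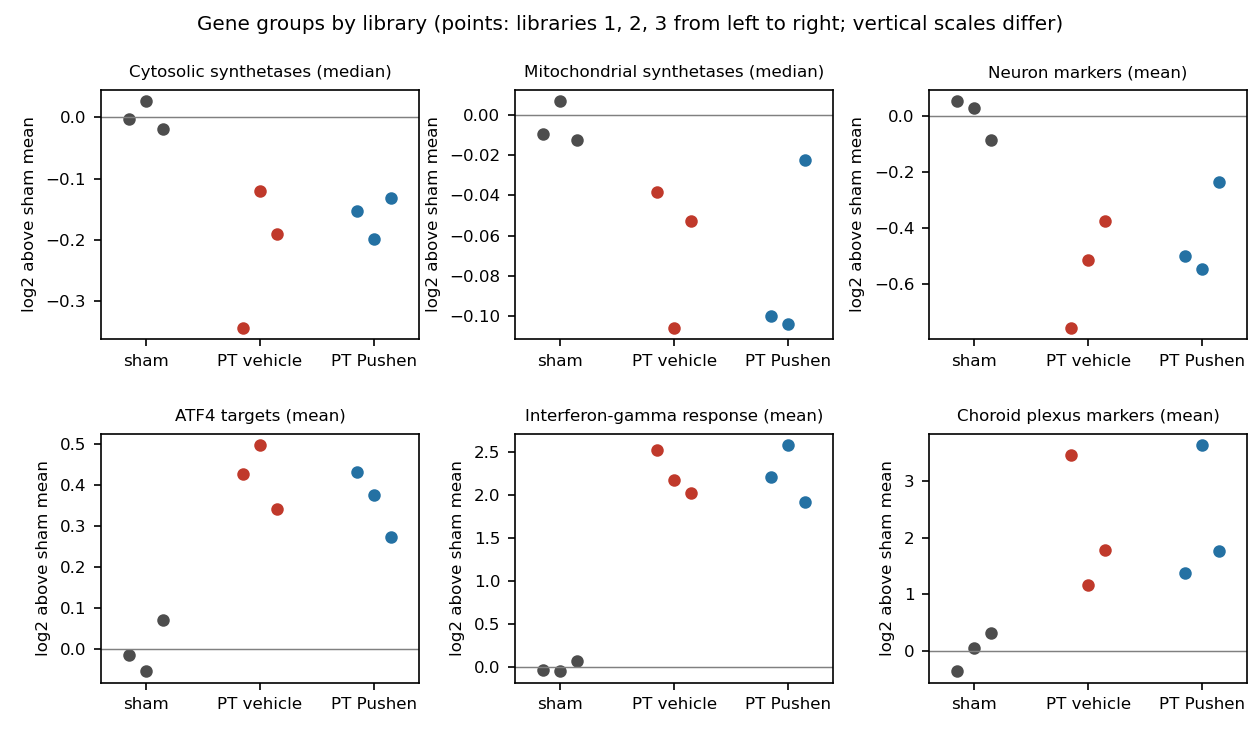
Each panel gives, for the 3 libraries of each group, the log2 level above the sham mean of a gene group: the median of the synthetase classes and the mean of the marker and pathway lists, on vertical scales that differ between panels. Cytosolic synthetases and neuron markers lie below 0 in all 6 infarct libraries, ATF4 targets and interferon-gamma response genes lie above 0 in all 6, and choroid plexus markers peak in PT vehicle library 1 and Pushen library 2.

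Genes of the integrated stress response, whose effector Atf4 is known to act on synthetase genes, were compared between PT vehicle and sham as well. Of 30 such genes listed (synthetases not among them) 28 passed the filter and were tested. Of these 15 were higher and 3 lower than in sham and 10 were not called, with a median log2 fold change of 0.40. The 3 of smallest p were Gpt2, an alanine aminotransferase (0.59 ± 0.07, adjusted p = 0.000595), Eif4ebp1, a repressor of cap-dependent translation (1.27 ± 0.19, adjusted p = 0.00187), and Ddit4, an inhibitor of mTORC1 (1.23 ± 0.21, adjusted p = 0.00285). The 3 lower ones were Chac1, Asns and Slc7a3, named here because they are all of that count. Atf4 itself had 46.0, 34.7 and 27.8 FPKM in sham and 48.9, 52.5 and 30.4 FPKM in PT vehicle, which overlap (adjusted p = 0.627). The part of Atf4 in the levels of the synthetases was not tested. Of the 5 kinases and regulators of eIF2alpha phosphorylation, Eif2ak2, the kinase activated by double-stranded RNA, was higher (1.47 ± 0.22, adjusted p = 0.0019), and 0 were lower.

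The site at which Atf4 binds with C/EBP partners was searched because it marks which synthetase genes carry the element of that response. The letters searched were TGATGNAA on both strands, in RefSeq promoters (GRCm38.p6) from 250 bases before to 50 bases after the start, found for 27 of the 37 members. It occurred in 5 of 13 cytosolic and 0 of 14 mitochondrial promoters, and in 4.51% of 27025 genes. The 5 were Aars, with 2 matches, Gars, Iars, Tars and Yars. Of the 4 members that fell and had a promoter, 3 held the letters (Aars, Gars and Yars), and the other was Mars2. Nars, Hars and Rars also fell but had no promoter to search. Windows of 56 bases are shown 5′ to 3′ on the gene's strand, with the match in capitals; where it lies on the opposite strand it reads as the reverse complement.
Aars, chr8:111033686-111033741, plus strand, match 112 to 105 bases before the start: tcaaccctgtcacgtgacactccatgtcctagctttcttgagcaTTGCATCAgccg
Aars, chr8:111033807-111033862, plus strand, match at bases 10 to 17 after the start: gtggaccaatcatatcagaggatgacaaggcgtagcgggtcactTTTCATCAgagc
Gars, chr6:55037927-55037982, plus strand, match 30 to 23 bases before the start: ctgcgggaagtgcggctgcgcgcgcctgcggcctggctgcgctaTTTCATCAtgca
Iars, chr13:49682093-49682148, plus strand, match at bases 8 to 15 after the start: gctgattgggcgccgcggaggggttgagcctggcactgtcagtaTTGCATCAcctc
Tars, chr15:11399662-11399717, minus strand, match 15 to 8 bases before the start: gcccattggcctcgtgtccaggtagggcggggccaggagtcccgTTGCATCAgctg
Yars, chr4:129189862-129189917, plus strand, match at bases 4 to 11 after the start: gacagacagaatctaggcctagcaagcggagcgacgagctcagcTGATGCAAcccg
The 5 genes with the letters had log2 fold changes in PT vehicle against sham of -0.29 (Aars), -0.43 (Gars), -0.26 (Iars), -0.19 (Tars) and -0.27 (Yars). All lay below 0, as did 16 of the 20 cytosolic enzymes. Of the cytosolic genes searched that lacked the letters, Dars, Eprs, Farsb, Mars1 and Sars lay below 0 and Farsa, Kars and Qars above. Whether the letters bear on the fold changes was not tested. A match is a run of letters in this window and not a measured site of binding.

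Wars, the enzyme for tryptophan and the member known to be induced by interferon-gamma (ENSMUSG00000021266, chr12:108860030-108894174, minus strand), had 25.3, 25.9 and 14.1 FPKM in sham, 10.96, 25.0 and 11.8 FPKM in PT vehicle and 23.9, 10.9 and 10.6 FPKM in Pushen. High values of 23.9 to 25.9 FPKM occurred in 4 libraries, sham 1, sham 2, PT vehicle 2 and Pushen 1, and values of 10.6 to 14.1 FPKM in the other 5, so every group held both kinds. The log2 fold change in PT vehicle against sham was -0.51 ± 0.42 (adjusted p = 0.378), the least precise of the cytosolic class. Of 18 interferon-gamma response genes listed 15 passed the filter on low values, and 14 of these were higher, with a median of 2.70. A gene under 0.5 FPKM in sham could pass only if the infarct libraries were higher, so the filter favoured rises in this count. Smallest in p were Nlrc5, an activator of MHC class I genes (3.41 ± 0.23, adjusted p = 0.000355), the chemokine Cxcl10 (5.19 ± 0.35, adjusted p = 0.000355) and the immunoproteasome subunit Psmb8 (2.94 ± 0.24, adjusted p = 0.000446). Nlrc5 had 0.10 to 0.13 FPKM in sham and 1.12 to 2.08 FPKM in the infarct libraries, so it passed only through the latter. Wars overlaps Wdr25 on the opposite strand, whose level ran from 0.89 to 1.15 FPKM, and whether counting used strand is not stated.

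**Figure D5:**
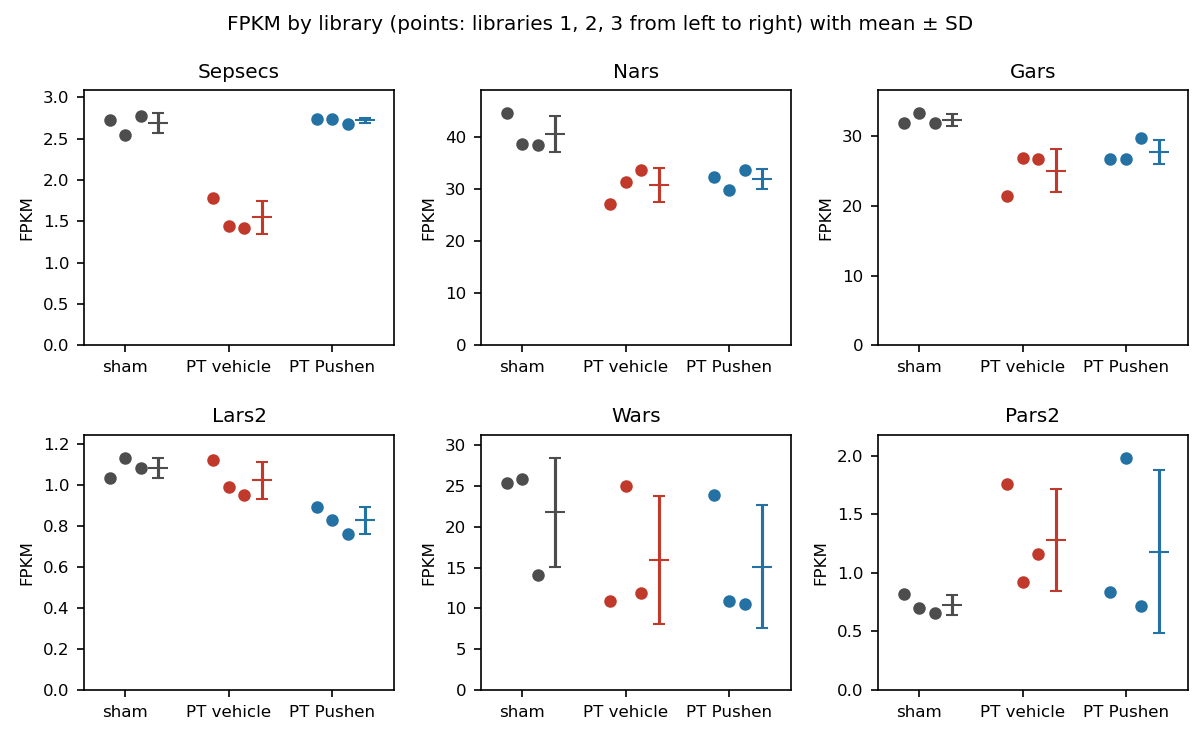
FPKM of 6 members in each library (points, libraries 1 to 3 from left to right) with the mean ± SD of each group, on axes from 0. Sepsecs is low in the 3 PT vehicle libraries alone, Nars and Gars are lower in both infarct groups, Lars2 is lowest in Pushen, Wars takes a high or a low level in each group, and Pars2 is highest in PT vehicle library 1 and Pushen library 2.

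Pars2, the mitochondrial enzyme for proline (ENSMUSG00000043572, chr4:106651069-106655282, plus strand), had 0.82, 0.70 and 0.66 FPKM in sham, 1.76, 0.92 and 1.16 FPKM in PT vehicle and 0.84, 1.98 and 0.72 FPKM in Pushen. It had the largest value above 0 of the set in PT vehicle against sham, 0.75 ± 0.39, with an adjusted p of 0.176. Its 2 highest libraries, PT vehicle 1 and Pushen 2, were also those with the most choroid plexus transcripts, the summed level of 6 such markers being 547.2 and 629.2 FPKM there, 3.71 to 18.6 FPKM in sham and 23.7 to 151.7 FPKM in the other infarct libraries; 3 of the 6 markers were higher in PT vehicle than in sham, and 0 were at a count of 0. Their part in the level of Pars2 was not tested. Without these 2 libraries the log2 fold change of Pars2 was 0.45 ± 0.21 in PT vehicle against sham and 0.04 ± 0.21 in Pushen against sham. Fars2, the mitochondrial enzyme for phenylalanine, had 1.49, 1.52 and 1.46 FPKM in sham and 2.30, 1.78 and 1.80 FPKM in PT vehicle, apart from each other (0.34 ± 0.12, adjusted p = 0.0642); without the same libraries it stood at 0.21 ± 0.10. Its locus overlaps Lyrm4 on the opposite strand.

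Sepsecs (ENSMUSG00000029173, chr5:52640087-52669708, minus strand) had 2.73, 2.55 and 2.78 FPKM in sham, 1.78, 1.44 and 1.42 FPKM in PT vehicle and 2.74, 2.74 and 2.68 FPKM in Pushen. All 3 PT vehicle libraries lay below all 6 others, and the sham and Pushen libraries overlapped. The counts behind these values were 1448 to 1508 in sham, 729 to 1014 in PT vehicle and 1254 to 1603 in Pushen. The log2 fold change was -0.85 ± 0.11 in PT vehicle against sham, 0.80 ± 0.11 in Pushen against PT vehicle and -0.05 ± 0.11 in Pushen against sham, given as a description since these values were known when the gene was chosen. The comparisons share libraries, so the low PT vehicle values enter both of the first 2 figures. Without PT vehicle library 1 and Pushen library 2 the 3 values were -0.97 ± 0.10, 0.91 ± 0.11 and -0.05 ± 0.10, in the same order.

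Pstk, the kinase that prepares the tRNA for Sepsecs, had 2.35, 2.26 and 2.20 FPKM in sham, 1.60, 1.56 and 1.55 FPKM in PT vehicle and 1.81, 1.71 and 1.95 FPKM in Pushen. The 3 groups did not overlap, with Pushen between the others. Pstk was lower than sham in PT vehicle (-0.58 ± 0.09, adjusted p = 0.00218) and in Pushen (-0.38 ± 0.09, adjusted p = 0.0234), and its difference between Pushen and PT vehicle, 0.20 ± 0.09, did not pass (adjusted p = 0.707). It was the only 1 of 6 other genes of the selenocysteine pathway to pass in either comparison with sham; Sephs1 (0.18 ± 0.09, adjusted p = 0.167) and Sephs2 (-0.09 ± 0.08, adjusted p = 0.467), which relate to selenophosphate supply, did not.

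Neighbouring steps of translation gave mixed values in PT vehicle against sham. The 3 scaffolds of the multisynthetase complex all lay below 0 and 0 of them passed: Aimp2 at -0.37 ± 0.12 (adjusted p = 0.0528), Eef1e1 at -0.31 ± 0.12 (0.0803) and Aimp1 at -0.23 ± 0.09 (0.0956). Of 6 cytosolic elongation factors 4 were higher and 1 lower. Eef1a1, which brings charged tRNAs to the ribosome in most tissues, had 409.2, 423.8 and 457.3 FPKM in sham and 763.0, 688.9 and 613.9 FPKM in PT vehicle and rose by 0.62 ± 0.10 on the log2 scale (adjusted p = 0.00258). Eef1a2, its counterpart in neurons and muscle, had 437.5, 517.5 and 494.6 FPKM in sham and 350.8, 400.0 and 418.3 FPKM in PT vehicle and fell by 0.37 ± 0.12 (adjusted p = 0.0496). Eef1d and Eef1b2, subunits of the factor that recharges Eef1a proteins with GTP, were at 0.27 ± 0.08 (adjusted p = 0.0326) and 0.36 ± 0.12 (0.043). Of 18 mitochondrial translation factors and tRNA enzymes 0 passed, with a median of -0.10; the nearest was the release factor Mtrf1 (-0.41 ± 0.14, adjusted p = 0.0505).

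The comparison of Pushen with PT vehicle asks what the drug altered after the infarct. With edgeR 0 of the 36 synthetases passed, as did 0.0% of the 16740 genes, of which 1086 had an unadjusted p under 0.05. Among the synthetases 2 had such a p, Lars2 and Lars. DESeq2 called 48 genes, with 0 synthetases among them. The cytosolic median was 0.02 and the mitochondrial median -0.06, beside -0.0081 over all genes. On the edgeR scale 3 of the 36 synthetases had all Pushen libraries above all PT vehicle libraries (Lars, Dars and Rars2), beside 6.25% of all genes, and 3 had them all below (Vars, Fars2 and Lars2), beside 5.97%. In FPKM 2 lay above (Dars and Rars2), beside 7.25% of all genes, and 4 below (Vars, Fars2, Lars2 and Sars2), beside 5.19%.

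Lars2, the mitochondrial enzyme for leucine (ENSMUSG00000035202, chr9:123366927-123462666, plus strand), had 1.03, 1.13 and 1.08 FPKM in sham, 1.12, 0.99 and 0.95 FPKM in PT vehicle and 0.89, 0.83 and 0.76 FPKM in Pushen. The Pushen libraries were the 3 lowest, and sham and PT vehicle overlapped. Its log2 fold change in Pushen against PT vehicle was -0.31 ± 0.11 (adjusted p = 0.707). Lars, the cytosolic enzyme for the same amino acid, had 6.88, 7.17 and 6.69 FPKM in sham, 5.79, 6.50 and 6.03 FPKM in PT vehicle and 7.50, 7.32 and 6.47 FPKM in Pushen. Pushen library 3 fell below PT vehicle library 2 in FPKM, though not on the edgeR scale (0.21 ± 0.08, adjusted p = 0.707). The ratio of Lars to Lars2 was 6.19 to 6.68 in sham, 5.17 to 6.57 in PT vehicle and 8.43 to 8.82 in Pushen. The Pushen range did not overlap the others, but both genes were chosen by their p in this same comparison. Other pairs also had Pushen apart. Sars to Sars2 was 12.11 to 12.65 in Pushen against at most 12.08 elsewhere. Yars to Yars2 was 4.99 to 5.36 in Pushen against at least 5.50 elsewhere.

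In Pushen against sham 4 of the 36 synthetases fell and 0 rose, beside 16.2% of all genes called, 13.5% higher and 2.73% lower. Lars2 fell by 0.46 ± 0.11 on the log2 scale (adjusted p = 0.0186), Yars by 0.32 ± 0.08 (0.0272), Nars by 0.41 ± 0.11 (0.0339) and Aars by 0.32 ± 0.09 (0.04999). The call of Lars2 was lost without sham library 2, sham library 3 or Pushen library 2 (adjusted p of 0.0769, 0.0557 and 0.0659). Yars lost it when any 1 of the sham libraries or Pushen library 1 or 2 was left out (up to 0.107), Nars in these omissions and in that of PT vehicle library 2 (up to 0.124), and Aars in all omissions but those of PT vehicle library 1 or 3 (up to 0.169). Without sham library 2, sham library 3 or Pushen library 2, 0 synthetases passed, without sham library 1 or Pushen library 1 only Lars2 did, and without PT vehicle library 1 there were 8. Of all genes 2718 passed with every library kept, 1538 to 1900 in these sham and Pushen omissions, and 3736 without PT vehicle library 1. The cytosolic median was -0.20, with 15 of 20 below 0, and the mitochondrial median -0.07, with 11 of 16 below 0; the latter was 0.000695 with scaling by library size alone. On the edgeR scale 15 of the 36 enzymes had all Pushen libraries below all sham libraries, beside 19.6% of all genes, and 1, Qars, had them all above, beside 23.1%. In FPKM 10 lay below, beside 13.1% of all genes, and 5 above (Qars, Dars, Eprs, Cars2 and Fars2), beside 27.2%.

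Set side by side, Gars had a log2 fold change of -0.43 ± 0.10 in PT vehicle against sham and -0.29 ± 0.10 in Pushen against sham, and Nars -0.46 ± 0.11 and -0.41 ± 0.11. In Pushen against sham Nars passed and Gars did not (adjusted p = 0.0868). Lars had -0.23 ± 0.08 and -0.03 ± 0.08. The direct differences between Pushen and PT vehicle were 0.14 ± 0.10 for Gars, 0.05 ± 0.11 for Nars and 0.21 ± 0.08 for Lars, none of which passed. These comparisons share the sham libraries.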

How the data were processed

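Total RNA from 9 libraries was sequenced with the Illumina TruSeq kit, per the labels' protocols. The table deposited by the authors gives raw read counts per gene, and FPKM that the authors scaled to gene length and library size. Bowtie 0.12.2 and mm8 are named in the submitters' processing notes; the sources used here name no counter, annotation or use of strand. Coordinates in the table fit GRCm38, since the start of all 37 members, and of 99.6% of 55141 shared genes, is that of GENCODE M21. Column names placed all 18 value columns. In total 9 members overlap another coding gene and are uncertain where strand was not used.

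Genes averaging 0.5 FPKM or more (16740) were fitted with edgeR 4.0.16 (TMM scaling, quasi-likelihood test, 3 groups together) in R 4.3.3, with Benjamini-Hochberg adjustment per comparison. SE is the fold change over the square root of F. Levels by library are log2(CPM + 0.5). The fits were tested on simulated data. Alternatives were other filters and scalings, DESeq2 1.42.0, limma 3.58.1 on log2 FPKM with pseudocounts of 0.1 and 1, a replicate block, and omission of libraries. Per-library values are given for Wars, Sepsecs, the 5 largest falls, the 3 smallest p of Pushen against PT, and the highest and lowest level of each class; up to 3 genes per list are named by p, and others named were chosen after their values were seen. The members and lists were chosen with earlier results of these data known. Some results are not reported here.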

Additional observations from a re-analysis of the deposited data

How the results depend on the processing

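The count of synthetases passing in PT vehicle against sham was 7. It was 13 with DESeq2 and 3 with no filter, with scaling by library size alone and with limma on log2(FPKM + 0.1). Leaving out each library in turn gave 1 to 8, and leaving out PT vehicle 1 with Pushen 2 gave 2. The count over all genes moved as well, from 5176 to 6257 with DESeq2. It was 4892 with no filter, 4982 with library size alone and 4935 with limma on log2(FPKM + 0.1). Leaving out each library gave 3198 to 5799 genes, and leaving out PT vehicle 1 with Pushen 2 gave 3465. The count of synthetases in Pushen against PT vehicle was 0 in each fit. In Pushen against sham it was 4, and 2 with library size alone, 8 with only the 2 groups fitted and 0 with limma on log2(FPKM + 0.1). It was 0 to 8 leaving out each library, and 2 leaving out PT vehicle 1 with Pushen 2. Over all genes 2718 passed there, 2857 with library size alone, 3653 with only the 2 groups fitted and 2696 with that limma fit. Leaving out each library gave 1538 to 3736 genes, and leaving out PT vehicle 1 with Pushen 2 gave 2049. The cause of these moves was not tested, beyond the fewer samples where libraries are left out.

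Replicate numbers gave no sign of pairing the libraries. After the mean of each group was subtracted from log2 CPM, the 9 same-numbered pairs correlated at -0.22 to 0.0988. Pairs of different number correlated at -0.105 to 0.152. With the replicate number as a block, 3 synthetases passed in PT vehicle against sham and 2 in Pushen against sham. Over all genes 4266 and 2108 passed in that fit.

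The cytosolic median kept its sign under the alternatives run for it (DESeq2 was not) in both comparisons with sham, at -0.28 to -0.18 in PT vehicle and -0.23 to -0.12 in Pushen; in the latter it was -0.13 with library size alone, -0.13 with limma at a pseudocount of 0.1 and -0.12 at 1. The mitochondrial median in PT vehicle against sham was -0.022 with library size alone, -0.027 with limma at 0.1, -0.023 at 1, and -0.134 to -0.021 leaving out each library. In Pushen against sham it was 0.000695 with library size alone, -0.0033 with limma at 0.1, -0.0029 at 1, and -0.115 to -0.0397 leaving out each library. In Pushen against PT vehicle it was -0.057 to 0.012 leaving out each library. Depth limits Pars2 most, at 159 to 517 counts per library.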

Other observations

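The high and low levels of Wars, which did not follow the groups, were shared by another gene. Of 16739 other genes tested, Nsd3, a histone H3 lysine 36 methyltransferase gene on chromosome 8, had the pattern nearest to Wars over the 9 libraries, by the root mean square difference of centred log2 CPM (0.173, against a spread of 0.568 for Wars itself). Nsd3 had 5.24, 5.32 and 3.46 FPKM in sham, 2.46, 5.27 and 2.90 FPKM in PT vehicle and 5.21, 3.25 and 2.87 FPKM in Pushen. Its 4 highest libraries were those in which Wars was high. The next nearest was Nsd2, a related methyltransferase gene on chromosome 5 (0.284), and then Tbr1, a transcription factor of cortical projection neurons (0.289). Nsd2 did not part the libraries as Wars did. It had 2.41 FPKM in sham library 2, where Wars was high, and 2.58 FPKM in sham library 3, where Wars was low. Wars was examined in this way after its values were seen, and no test was made.

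The phenylalanine enzyme is built of subunits encoded by Farsa and Farsb. Farsa had 5.47, 5.74 and 5.70 FPKM in sham and 6.12, 5.91 and 6.33 FPKM in PT vehicle, while Farsb had 12.2, 9.67 and 9.15 FPKM in sham and 7.78, 9.95 and 8.47 FPKM in PT vehicle. Farsb overlaps Sgpp2 on the opposite strand. Both were chosen after their values were seen.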
